A study of Mus musculus with 8 samples.

Results

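The 8 genes Cdx1, Cdx2, Hnf4a, Hnf4g, Gata4, Gata6, Pdx1 and Onecut2 encode transcription factors that set intestinal identity and position along the gut. They were chosen by name, with no threshold on a measured value, and each matched 1 of the 56980 gene identifiers in the count tables. Their mRNA was measured in jejunal mucosal scrapings of male littermate mice that differ in the free fatty acid receptor FFA2, with 4 FFA2 fl/fl mice (floxed controls, both alleles floxed and no Cre) and 4 Adipoq-F2-KO mice (the same floxed alleles with an adiponectin-Cre transgene). All 8 mice were 12 weeks old when moved from chow to a Western diet with 10% fructooligosaccharides, a fermentable fiber, and were sampled 2 weeks later in thermoneutral housing. The adiponectin promoter drives Cre in adipocytes, so the mucosa is not the tissue in which the receptor was deleted. The question addressed here was whether the transcription factors that define the jejunum differed between the genotypes.

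Intestinal epithelium keeps its identity through a small set of DNA-binding proteins. CDX1 and CDX2 are caudal-type homeodomain proteins, and CDX2 is the factor without which gut endoderm takes on a stomach-like fate. HNF4A and HNF4G are closely related nuclear receptors that together switch on enterocyte genes for lipid handling and the brush border. GATA4 and GATA6 are zinc finger proteins, of which GATA4 is made in duodenum and jejunum and falls away in the ileum, and in the jejunum it holds ileal bile acid genes off. PDX1 marks duodenum and pancreas, and ONECUT2 belongs to the cut homeodomain family and is known from the proximal small intestine.

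Promoter windows from RefSeq (mouse build GRCm38.p6, 250 bases before to 50 bases after an annotated start) were found for 3 of the 8 genes and not for the other 5. They are shown because Hnf4a has 2 annotated starts, 40298 bp apart between windows, and because Pdx1 and Cdx2 are neighbors on chromosome 5, 37353 bp apart between windows. The windows of Lct (lactase, a jejunal enzyme), Sis (sucrase-isomaltase, a known CDX2 target) and Fabp6 (the ileal bile acid binding protein) are set beside them as genes that these factors are known to act on. Capitals mark matches, on either strand, to short motifs of the same factor families.
Hnf4a upstream start (chr2:163506607-163506906, plus strand): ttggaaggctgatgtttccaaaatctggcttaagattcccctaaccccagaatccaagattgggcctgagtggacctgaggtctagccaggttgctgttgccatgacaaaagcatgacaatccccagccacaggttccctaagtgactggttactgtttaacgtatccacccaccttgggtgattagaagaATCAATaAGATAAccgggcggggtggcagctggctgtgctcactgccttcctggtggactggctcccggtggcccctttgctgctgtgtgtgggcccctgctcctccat
Hnf4a downstream start (chr2:163546905-163547204, plus strand): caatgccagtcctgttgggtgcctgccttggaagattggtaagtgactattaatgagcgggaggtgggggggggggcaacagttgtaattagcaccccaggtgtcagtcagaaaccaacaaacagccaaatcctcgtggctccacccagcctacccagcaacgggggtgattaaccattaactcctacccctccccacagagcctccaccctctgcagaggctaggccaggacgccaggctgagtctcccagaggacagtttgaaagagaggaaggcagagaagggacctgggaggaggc
Cdx2 (chr5:147307200-147307499, minus strand): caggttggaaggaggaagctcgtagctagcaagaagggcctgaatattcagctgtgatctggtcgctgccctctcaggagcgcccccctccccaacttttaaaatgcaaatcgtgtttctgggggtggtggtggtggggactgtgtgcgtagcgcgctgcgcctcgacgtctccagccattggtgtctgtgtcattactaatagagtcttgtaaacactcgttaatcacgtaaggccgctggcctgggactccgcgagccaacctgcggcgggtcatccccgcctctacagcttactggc
Pdx1 (chr5:147269847-147270146, plus strand): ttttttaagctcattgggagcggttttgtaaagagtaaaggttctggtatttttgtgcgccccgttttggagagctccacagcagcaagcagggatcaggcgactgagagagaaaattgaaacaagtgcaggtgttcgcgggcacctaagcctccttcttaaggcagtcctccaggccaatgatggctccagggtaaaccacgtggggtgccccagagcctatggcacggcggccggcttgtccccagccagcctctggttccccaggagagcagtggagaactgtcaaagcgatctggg
Lct (chr1:128328269-128328568, minus strand): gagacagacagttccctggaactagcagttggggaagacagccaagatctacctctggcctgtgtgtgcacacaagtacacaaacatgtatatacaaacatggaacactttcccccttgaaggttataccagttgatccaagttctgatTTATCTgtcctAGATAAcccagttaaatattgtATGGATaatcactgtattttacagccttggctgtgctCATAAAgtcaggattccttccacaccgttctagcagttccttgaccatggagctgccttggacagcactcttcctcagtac
Sis (chr3:72967814-72968113, minus strand): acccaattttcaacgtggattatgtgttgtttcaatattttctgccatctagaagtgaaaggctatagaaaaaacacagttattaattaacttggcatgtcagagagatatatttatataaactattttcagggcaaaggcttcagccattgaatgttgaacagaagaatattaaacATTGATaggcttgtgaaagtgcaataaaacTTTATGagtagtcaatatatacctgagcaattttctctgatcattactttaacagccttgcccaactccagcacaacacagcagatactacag
Fabp6 (chr11:43601513-43601812, minus strand): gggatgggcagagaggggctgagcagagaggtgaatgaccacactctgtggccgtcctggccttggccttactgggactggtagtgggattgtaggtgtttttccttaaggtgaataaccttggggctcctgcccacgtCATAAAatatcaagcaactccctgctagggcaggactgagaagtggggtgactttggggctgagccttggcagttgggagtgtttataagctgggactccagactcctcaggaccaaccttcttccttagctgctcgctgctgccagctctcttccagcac

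Each motif was searched together with its reverse complement in the 32851 windows of this length. The HNF4 motif was written CAAAGTCCA and occurred in 0.475% of them. The GATA motif was written AGATAA and occurred in 11.2% of them. For the CDX family the letters were TTTATG, found in 11.9% of windows. For the ONECUT family the letters were ATCNAT, found in 21.4%. No 2 matches overlapped in the windows shown. The upstream Hnf4a window held an ONECUT match that began 59 bases before the start and a GATA match that began 52 bases before it. No match was found in the downstream Hnf4a window or in those of Cdx2 and Pdx1. The Lct window held 2 GATA matches, 1 ONECUT match and 1 CDX match, the Sis window an ONECUT and a CDX match, and the Fabp6 window a CDX match. The matches describe letters in these windows, and occupancy was not measured.

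The libraries held between 6007654 and 21712776 counts. Floxed control 3, Adipoq-F2-KO 3 and Adipoq-F2-KO 4 had fewer than 10000000 counts, and the other 5 (3 floxed controls and 2 Adipoq-F2-KO) had more. The same 3 libraries were the highest for several bile acid genes of the ileum, though not for every ileal gene listed. Raw counts of Fabp6 were 2, 2, 250 and 1 in floxed controls 1 to 4 and 5, 2, 70 and 501 in Adipoq-F2-KO 1 to 4. Raw counts of Fgf15, the ileal hormone gene that answers bile acids, were 1, 0, 60 and 1 in floxed controls and 1, 0, 8 and 49 in Adipoq-F2-KO. Both genes were therefore at 5 counts or fewer in every library above 10000000 counts and higher in all 3 below it. Slc10a2 and Slc51b, ileal bile acid transporter genes, were also highest in these 3 by normalized count, in which DESeq2 size factors correct raw counts for depth. The other 7 ileal genes, Slc51a, Osr2, Cubn, Amn, Nts, Pyy and Gcg, did not set the 3 apart. Cubn was highest in floxed control 1 at 32388 normalized counts and Osr2 in Adipoq-F2-KO 1 at 969.4. The 11 genes summed to 32557, 26192 and 28706 normalized counts in the 3 small libraries and to 16056 to 37841 in the other 5. Cubn made up most of each sum, with 32388 of the 37841 in floxed control 1 and 9510 of the 16056 in Adipoq-F2-KO 2. The sums therefore mainly follow Cubn and do not speak for the 11 genes as a set. The comparisons below are over 8 libraries, and values over the 5 larger ones are added to many of them. Depth and the level of these bile acid genes cannot be told apart in these libraries. Ffar2 itself, the gene of FFA2, had raw counts of 12, 18, 2 and 11 in floxed control mucosa and 13, 12, 6 and 3 in Adipoq-F2-KO mucosa, and it did not pass the test between genotypes (log2 fold change 0.18, DESeq2 adjusted p = 0.9998).

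The jejunal label was checked on marker genes. Normalized counts ran from 32223 to 51533 for Lct and from 119807 to 157877 for Sis, so both digestive enzyme genes were abundant in all 8 libraries. Stomach genes were near absent, with 0 of the 10 matched genes reaching the count filter and Sox2, a foregut factor, at 5 raw counts or fewer. The colon enzyme gene Car1 was at 0 counts in all libraries. Among 12 pancreatic genes Ctrc, Ptf1a and Ins2 were at 0 counts in all libraries, and Clps, the gene of pancreatic colipase, was detected in all 8 at 42.56 to 158.1 normalized counts. The 12 together summed to 45.66 to 158.7 normalized counts per library in floxed controls and 91.76 to 120.3 in Adipoq-F2-KO.

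Per unit of exon length, the HNF4 genes were the most abundant of the 8. Mean RPKM (counts scaled by exon length and library total) over 8 libraries was 309.2 ± 87.99 (SD, n = 8) for Hnf4g and 194.5 ± 19.32 for Hnf4a, and Hnf4g was the higher in 8 of 8 libraries. The closest was floxed control 4, at 191.2 against 182.4 RPKM. This order rests on annotated exon lengths of 2630 bases for Hnf4g and 4828 for Hnf4a, since Hnf4a had the higher counts in most libraries. Next came Cdx2 at 46.09 ± 6.475, Gata4 at 37.03 ± 9.325, Gata6 at 29.45 ± 4.536 and Cdx1 at 25.97 ± 2.68. These 4 neighbors were not cleanly ordered, since Cdx2 exceeded Gata4 in 6 of 8 libraries, Gata4 exceeded Gata6 in 7 and Gata6 exceeded Cdx1 in 6. Onecut2 stood lower at 7.167 ± 1.444 RPKM, below Cdx1 in 8 of 8 libraries. Its annotated exon length is 16234 bases against 1750 for Cdx1, and by normalized count it lay above Cdx1 in 8 of 8. Pdx1 was lowest at 0.189 ± 0.1019 RPKM, while its neighbor Cdx2 was among the better expressed genes. Ranked among 15711 tested genes with a known length, Hnf4g was 94th, Hnf4a 156th, Cdx2 796th, Gata4 1015th, Gata6 1308th, Cdx1 1513th and Onecut2 4527th.

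**Figure D1:**
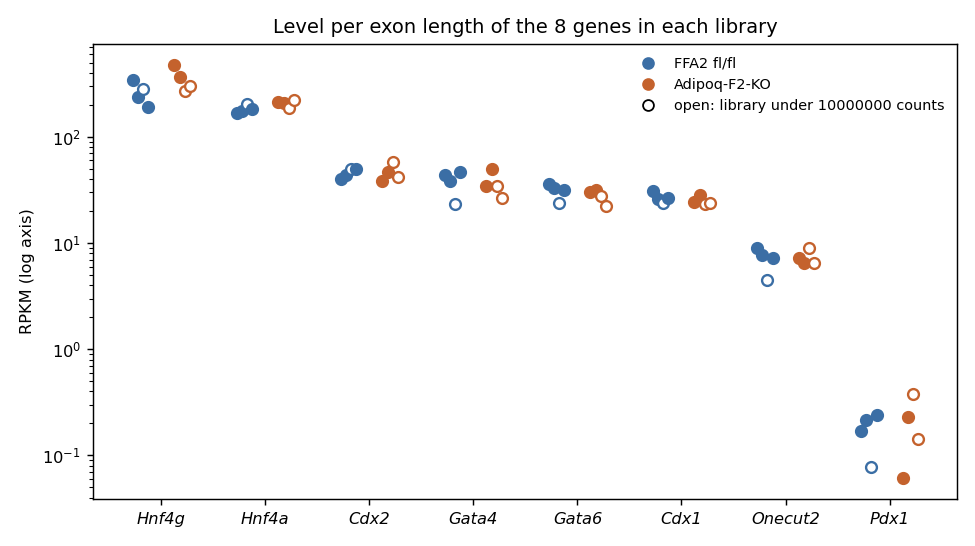
Level of each gene per exon length (RPKM, log axis) in each of the 8 libraries, blue for FFA2 fl/fl and orange for Adipoq-F2-KO, with open circles for the 3 libraries under 10000000 counts. The HNF4 genes lie at 166.8 RPKM or above, the Cdx1, Cdx2, Gata4 and Gata6 points form a middle band, and Pdx1 lies below 1 RPKM in every library.

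Between the genotypes, none of the 8 genes changed by the adjusted test. Of the 7 genes that reached the count filter (10 counts in at least 4 libraries), 0 had a DESeq2 adjusted p below 0.05, against 0.0375% of all 15986 genes tested. At an unadjusted p below 0.05 there was 1, Hnf4g, against 3.03% of all genes. By edgeR's quasi-likelihood test there were 0 at either threshold, against 3.48% of all genes at the unadjusted one. In 0 of the 7 genes were the 4 mice of one genotype all above or all below the 4 of the other, against 2.12% of all genes. The median log2 fold change (Adipoq-F2-KO over floxed controls) of the 7 genes was 0.01, with 4 genes on the higher and 3 on the lower side, and that of all tested genes was -0.01.

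**Figure D2:**
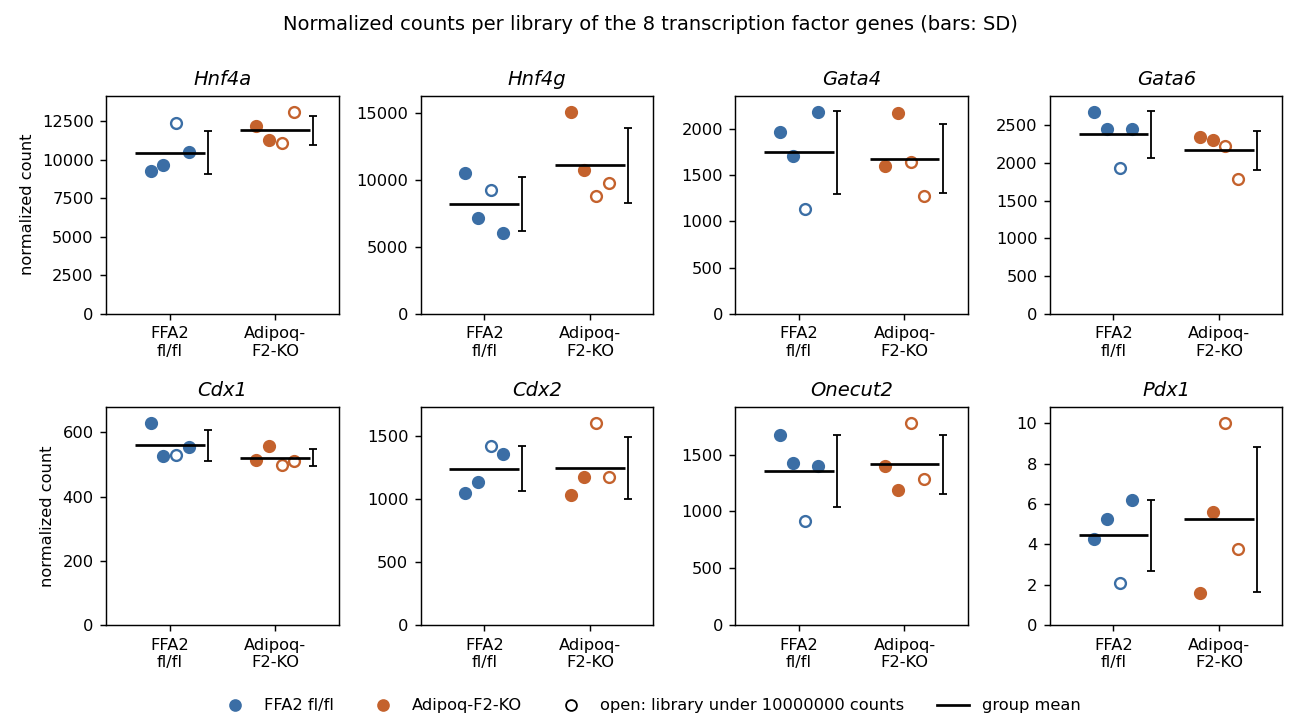
Normalized counts of the 8 genes in each library, with a horizontal line for the group mean, a vertical bar for 1 SD (n = 4) and open circles for the 3 libraries under 10000000 counts. The genotypes overlap for every gene, and the highest Hnf4g value (15123) belongs to Adipoq-F2-KO 1.

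Hnf4g (ENSMUSG00000017688, chromosome 3) had the largest difference of the 7. Its normalized counts were 10511, 7163, 9285 and 6023 in floxed controls and 15123, 10745, 8783 and 9786 in Adipoq-F2-KO. Adipoq-F2-KO 1 and 2 lay above all floxed controls, whereas Adipoq-F2-KO 3 and 4 fell within their range. The means were 8245.3 ± 2026.9 (SD, n = 4) and 11109.3 ± 2793.3, a log2 fold change of 0.43 with a 95% interval of 0.02 to 0.85 (DESeq2, adjusted p = 0.9998). Over the 5 larger libraries the log2 fold change was 0.71 (standard error 0.258; DESeq2, adjusted p = 0.318), and without Adipoq-F2-KO 1 it was 0.25 (standard error 0.197). Hnf4g also had the widest relative spread of the 7, with a coefficient of variation of 28.2% over 8 libraries. A pseudogene, Gm37000, lies within Hnf4g on the same strand and shares no exon bases with it. It drew 174 counts in all, against 89243 for Hnf4g.

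Hnf4a (ENSMUSG00000017950, chromosome 2) was steadier. The floxed controls held 9307, 9639, 12424 and 10544 normalized counts, and the Adipoq-F2-KO libraries 12229, 11272, 11104 and 13128. All 4 Adipoq-F2-KO values exceeded 3 of the 4 floxed controls, and floxed control 3 was the exception. The group means were 10478.6 ± 1398.2 (SD, n = 4) and 11933.3 ± 938.3, for a log2 fold change of 0.19 and a 95% interval of -0.04 to 0.42 (DESeq2, adjusted p = 0.9998). Without floxed control 3, one of the 3 small libraries, it was 0.28 (standard error 0.101; DESeq2, adjusted p = 0.203), in a fit where 8.14% of all genes had an unadjusted p below 0.05. Over the 5 larger libraries it was 0.25 (standard error 0.114; adjusted p = 0.634). The antisense gene Hnf4aos overlaps Hnf4a on the opposite strand without sharing exon bases, and drew 1114 counts against 99419.

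The ratio of Hnf4a to Hnf4g mRNA did not pass the test between genotypes. The log2 ratio of Hnf4a to Hnf4g counts within a library was -0.18, 0.43, 0.42 and 0.81 in floxed controls and -0.31, 0.07, 0.34 and 0.42 in Adipoq-F2-KO. Floxed control 1 and Adipoq-F2-KO 1 were the libraries in which Hnf4g counts exceeded Hnf4a counts. The difference in means was -0.24 (exact permutation test, two-sided, p = 0.371, adjusted over 4 ratios 0.657). It was -0.47 over the 5 larger libraries, -0.42 without floxed control 1 and -0.09 without either floxed control 4 or Adipoq-F2-KO 1. With 70 ways to divide 8 libraries, the smallest p that this test allows is 0.0286. That is too large for a single ratio on its own to pass the adjustment over 4 ratios, so the test cannot show the ratio to be equal.

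Gata4 (ENSMUSG00000021944, chromosome 14), the jejunal factor that is lost toward the ileum, had similar means in both genotypes and a wide spread between libraries. Its normalized counts were 1962, 1702, 1138 and 2185 in floxed controls and 1602, 2176, 1646 and 1275 in Adipoq-F2-KO. The lowest values belonged to floxed control 3 and Adipoq-F2-KO 4, which were also the highest libraries for Fabp6. Means were 1746.6 ± 451.4 (SD, n = 4) and 1674.6 ± 373.1, giving a log2 fold change of -0.06 and a 95% interval of -0.49 to 0.36 (DESeq2, adjusted p = 0.9998). Over the 5 larger libraries it was -0.05 (standard error 0.188).

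Gata6 (ENSMUSG00000005836, chromosome 18), which is made along the whole small intestine, had normalized counts of 2679, 2448, 1939 and 2454 in floxed controls and 2340, 2311, 2230 and 1788 in Adipoq-F2-KO. Floxed control 3 and Adipoq-F2-KO 4 were again the lowest of their genotypes. The log2 fold change was -0.14 with a 95% interval of -0.40 to 0.13 (DESeq2, adjusted p = 0.9998). It shares 93 exon bases with 1010001N08Rik on the opposite strand, which drew 6164 counts against 21922, and the strand setting of the counting is not given in the sources used here, so its count is uncertain to that extent. The log2 ratio of Gata4 to Gata6 averaged -0.48 ± 0.25 (SD, n = 4) in floxed controls and -0.39 ± 0.21 in Adipoq-F2-KO, a difference of 0.09 (exact permutation test, two-sided, p = 0.6, adjusted 0.657).

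Cdx1 (ENSMUSG00000024619, chromosome 18) was the steadiest of the 8 genes, with a coefficient of variation of 7.70% over 8 libraries. Normalized counts were 629.4, 525.0, 529.1 and 554.1 in floxed controls and 513.9, 558.6, 498.5 and 511.4 in Adipoq-F2-KO. Adipoq-F2-KO 1, 3 and 4 lay below all floxed controls, and Adipoq-F2-KO 2 above all but floxed control 1. The log2 fold change was -0.10 with a 95% interval of -0.32 to 0.11 (DESeq2, adjusted p = 0.9998).

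Cdx2 (ENSMUSG00000029646, chromosome 5), the master factor of intestinal identity, had nearly equal means of 1240.0 ± 177.9 (SD, n = 4) and 1247.5 ± 246.3 normalized counts. The floxed controls held 1047, 1135, 1424 and 1354, and the Adipoq-F2-KO libraries 1036, 1177, 1604 and 1173. The highest and the lowest of the 8 values were both in Adipoq-F2-KO. Its log2 fold change was 0.01 with a 95% interval of -0.31 to 0.33 (DESeq2, adjusted p = 0.9998). The log2 ratio of Cdx1 to Cdx2 averaged -1.14 ± 0.30 (SD, n = 4) in floxed controls and -1.24 ± 0.30 in Adipoq-F2-KO (difference -0.10; exact permutation test, two-sided, p = 0.657, adjusted 0.657).

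Onecut2 (ENSMUSG00000045991, chromosome 18) had normalized counts of 1668, 1423, 913.8 and 1402 in floxed controls and 1396, 1192, 1778 and 1286 in Adipoq-F2-KO. Floxed control 3 was the lowest and Adipoq-F2-KO 3 the highest, and both are among the 3 small libraries. The log2 fold change was 0.06 with a 95% interval of -0.32 to 0.44 (DESeq2, adjusted p = 0.9998), and over the 5 larger libraries it lay on the other side, at -0.22 (standard error 0.149; adjusted p = 0.987). Among its relatives, Onecut1 was at 0 counts in all libraries and Onecut3 had 33 counts in all.

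Pdx1 (ENSMUSG00000029644, chromosome 5) was barely detected and did not reach the count filter. Raw counts were 7, 10, 1 and 8 in floxed controls and 2, 9, 5 and 2 in Adipoq-F2-KO, so 3 of the 8 libraries were at or under 3 counts. In a fit without the count filter its log2 fold change was 0.07 with a 95% interval of -1.45 to 1.59 (DESeq2, adjusted p = 1.0), and at this depth a log2 change of 1 was not detectable. Plut, the antisense transcript beside Pdx1, drew 420 counts against 44 for Pdx1 and shares no exon bases with it.

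Without the 3 small libraries, the picture of the 7 genes shifted in 2 ways. Hnf4a and Hnf4g had an unadjusted DESeq2 p below 0.05, against 5.4% of all genes, and none had an adjusted p below 0.05. The genotypes no longer overlapped for Hnf4a and Hnf4g, higher in Adipoq-F2-KO, nor for Gata6 and Onecut2, lower, while with 3 against 2 libraries the same was true of 23.6% of all genes. The median log2 fold change of the 7 genes was then -0.09.

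**Figure D3:**
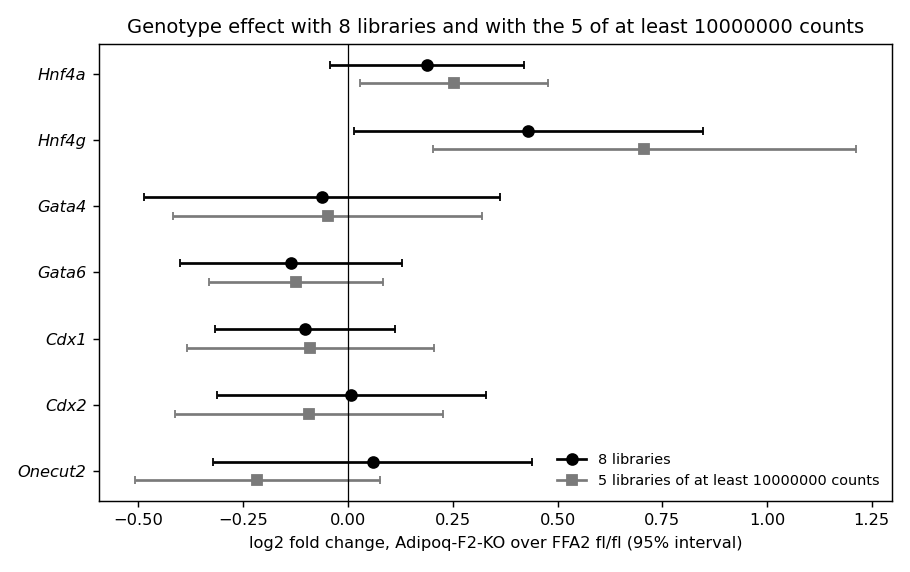
Log2 fold change (Adipoq-F2-KO over FFA2 fl/fl) of the 7 tested genes with 95% intervals, from all 8 libraries (black circles) and from the 5 of at least 10000000 counts (gray squares). Hnf4g lies at 0.43 and 0.71, and Onecut2 moves from 0.06 to -0.22.

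Scrapings can carry muscle of the gut wall along with epithelium, and the libraries differed widely in it. The summed normalized counts of 9 smooth muscle genes ran from 269.6 to 21233.7 in floxed controls and from 508.4 to 7407.3 in Adipoq-F2-KO, with a median log2 fold change of -0.92, 9 of 9 genes on the lower side and 0 past either threshold. The direction turned over the 5 larger libraries, to a median of 0.44 with 8 of 9 genes higher and 0 past either threshold. In a bulk scraping, fewer cells of a type and less RNA per cell cannot be told apart. The mean log2 level of the 9 genes was 4.36, 7.91, 10.23 and 4.39 in floxed controls 1 to 4 and 5.24, 7.82, 6.91 and 8.67 in Adipoq-F2-KO 1 to 4. Floxed control 3 and Adipoq-F2-KO 4, the lowest for Gata4 and Gata6, were thus the highest for smooth muscle.

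Over the 8 libraries Gata6 gave the strongest relation to the smooth muscle level, Pearson's r = -0.77 (exact permutation p = 0.0231, adjusted over 7 genes 0.115) and Spearman's rho = -0.81 (exact permutation p = 0.0218, adjusted 0.152), and r was -0.63 once floxed controls 1 and 4, the farthest from the median level, were dropped. For Gata4, r was -0.71 (exact permutation p = 0.0495, adjusted 0.115), rho was -0.67 (exact permutation p = 0.0831, adjusted 0.194) and r without the same 2 controls was -0.54. For Onecut2, r was -0.70 (exact permutation p = 0.0480, adjusted 0.115), rho was -0.62 (exact permutation p = 0.115, adjusted 0.201) and r without the same 2 controls was -0.71. None of the 7 relations passed the adjustment. The other 4 genes had r between -0.49 (Cdx1) and 0.53 (Hnf4a), with Hnf4g at -0.02. No correlation was computed within the 3 small or the 5 larger libraries alone. With the smooth muscle level as a term in the DESeq2 fit, 0 of the 7 genes had an adjusted p below 0.05.

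**Figure D4:**
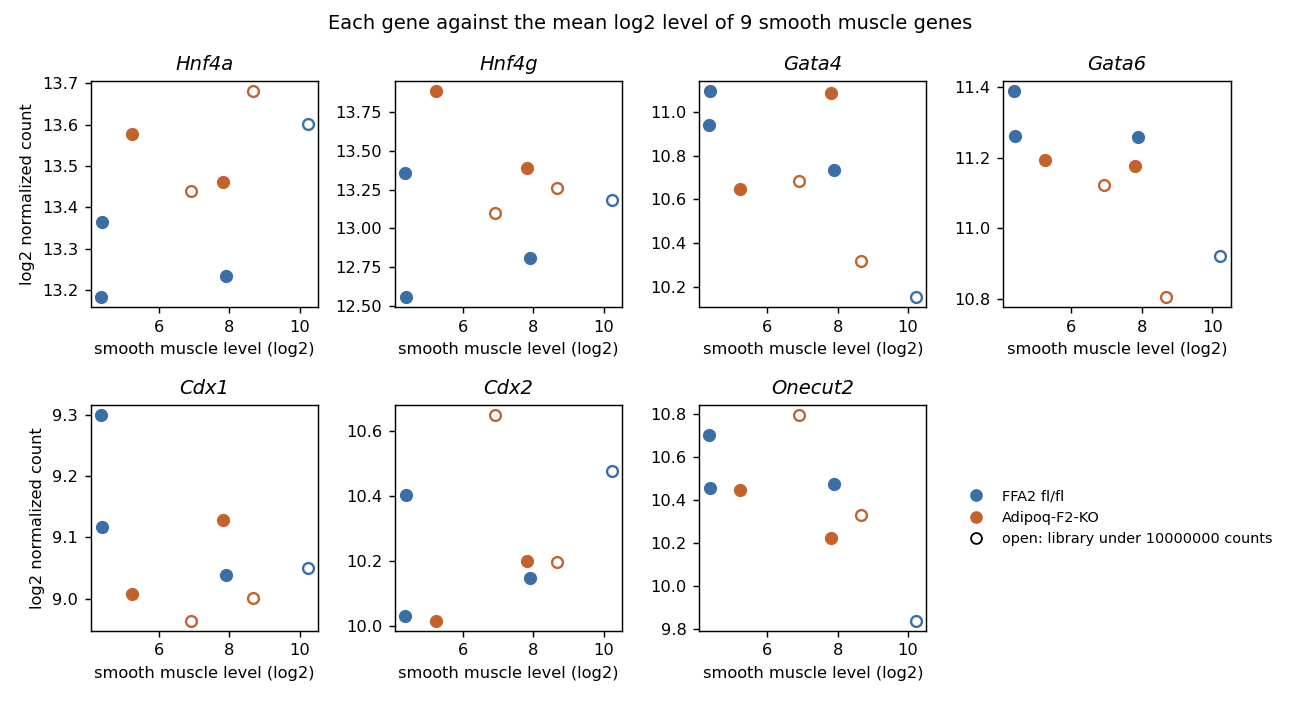
Log2 normalized count of each of the 7 tested genes against the mean log2 level of 9 smooth muscle genes, with 1 point per library, blue for FFA2 fl/fl, orange for Adipoq-F2-KO and open for the 3 libraries under 10000000 counts. Gata4 and Gata6 are lowest in the libraries at smooth muscle levels of 8.67 and 10.23.

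Other transcription factors of the epithelium gave no gene past the adjusted threshold. Of 26 tested from a list of 30, 12 lay on the higher side and 14 on the lower, with a median log2 fold change of -0.01. At an unadjusted p below 0.05 there were 2, against 3.03% of all genes. Tcf7l2, which carries Wnt signals in crypts, had normalized counts of 1623, 1668, 2585 and 1771 in floxed controls and 2472, 2388, 2451 and 2982 in Adipoq-F2-KO (log2 fold change 0.43; DESeq2, adjusted p = 0.9998). Floxed control 3 was the one control inside the Adipoq-F2-KO range, and over the 5 larger libraries Tcf7l2 rose by 0.52 (adjusted p = 0.000595), 1 of 77 genes called in that fit. Nr1i2, the xenobiotic receptor PXR, was at -0.34 (DESeq2, standard error 0.15, adjusted p = 0.9998), and at -0.32 over the 5 larger libraries (adjusted p = 0.612). Isx, a homeobox gene under CDX2 that holds down carotenoid uptake, was level at -0.00 (standard error 0.183). Klf5 (0.20), Elf3 (0.19), Nr5a2 (0.12), Sox9 (0.11) and Creb3l3 (-0.10) had log2 fold changes with adjusted p = 0.9998 by DESeq2.

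Genes that CDX2 and the HNF4 receptors are known to activate did not pass the test either. Of 13 such genes 6 lay higher and 7 lower, the median log2 fold change was -0.00, and 0 passed the adjusted or the unadjusted threshold. Over the 5 larger libraries the median was -0.01 and 0 passed the adjusted threshold. Apoc3, lower, had an unadjusted DESeq2 p below 0.05 there, against 5.4% of all genes. The genotypes did not overlap for 4 of the 13, against 23.6% of all genes. Sis had means of 127440.8 ± 5865.4 (SD, n = 4) and 142311.6 ± 10856.7 normalized counts and a log2 fold change of 0.16 with a 95% interval of -0.01 to 0.32 (DESeq2, adjusted p = 0.9998), and it was at 0.06 over the 5 larger libraries. Apoa4, an apolipoprotein of chylomicrons, was at 0.22 (standard error 0.164; DESeq2, adjusted p = 0.9998) and was at -0.01 over the 5 larger libraries.

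Position genes were read in the same way. Of 16 tested genes of the proximal small intestine 7 lay higher and 9 lower, with a median of -0.03 and 0 past either threshold. Over the 5 larger libraries the median was -0.21, with 4 genes higher and 12 lower, and Slc46a1, Apoc3, Slc2a2 and Treh had an unadjusted DESeq2 p below 0.05, all lower, against 5.4% of all genes, while 0 passed the adjustment. Fabp1, the proximal fatty acid binding protein, had a log2 fold change of 0.13 over 8 libraries and -0.21 over the 5, and Lct was at -0.04 over 8 and -0.19 over the 5. Of 9 tested ileal genes 3 lay higher and 6 lower, with a median of -0.07, and over the 5 larger libraries 6 lay higher and 3 lower, with a median of 0.07. Osr2 had a log2 fold change of 0.31 (DESeq2, adjusted p = 0.9998), and over the 5 larger libraries it rose by 0.52 (adjusted p = 0.0469), also 1 of the 77 genes called there. Slc10a2, the ileal bile acid transporter, had normalized counts of 31.50, 30.04, 330.4 and 78.16 in floxed controls and 63.15, 32.24, 268.3 and 415.5 in Adipoq-F2-KO, again high in the 3 small libraries. Its log2 fold change of 0.73 had a 95% interval of -1.34 to 2.80 (adjusted p = 0.9998). It was 0.03 over the 5 larger libraries, 0.04 without Adipoq-F2-KO 4 and 2.06 without floxed control 3, so single small libraries decided its size.

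**Figure D5:**
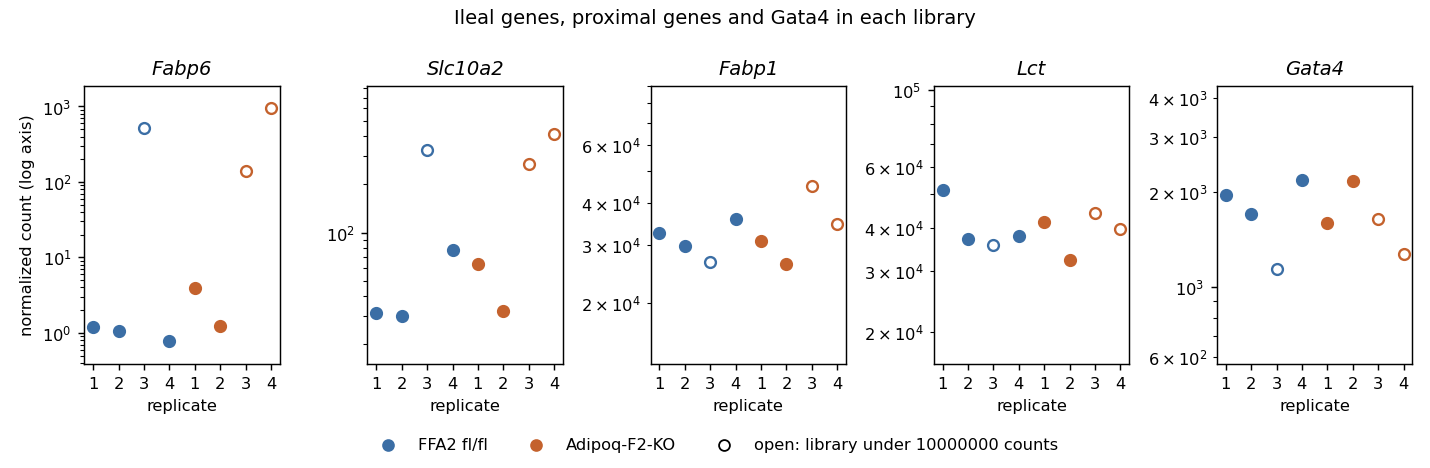
Normalized counts (log axes with a range per panel) of ileal Fabp6 and Slc10a2, proximal Fabp1 and Lct, and Gata4, by replicate number in FFA2 fl/fl (blue) and Adipoq-F2-KO (orange), with open circles for the 3 libraries under 10000000 counts. Those 3 libraries hold Fabp6 at 140.1 to 941.9 while the other 5 are below 4, and Gata4 is lowest in floxed control 3 (1138) and Adipoq-F2-KO 4 (1275).

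The log2 ratio of Fabp1 to Fabp6 counts, a measure of position, was 14.12, 14.20, 5.67 and 14.50 in floxed controls and 12.66, 13.78, 8.31 and 5.20 in Adipoq-F2-KO. Its means of 12.12 ± 4.31 (SD, n = 4) and 9.99 ± 3.97 differed by -2.13 (exact permutation test, two-sided, p = 0.457, adjusted 0.657). With Fabp6 at 5 raw counts or fewer in the 5 larger libraries, the ratios above 12 rest on few counts and on the 1 count added to each gene, and no difference is read from them. The difference in means was -0.54 without Adipoq-F2-KO 4 and -4.29 without floxed control 3. Among the 3 libraries with ratios below 9, Gata4 was 1138, 1646 and 1275 normalized counts, and in the other 5 it ran from 1602 to 2185. The ranges overlap at Adipoq-F2-KO 3, and the part of gut position in the Gata4 values was not tested.

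No marker gene of other cell content passed the adjusted threshold. Of 9 epithelial genes 4 lay higher and 5 lower with a median of -0.00, and Cldn7, a tight junction gene, had an unadjusted DESeq2 p below 0.05 (log2 fold change 0.22, adjusted p = 0.9998). All 9 epithelial genes lay higher over the 5 larger libraries, with a median of 0.15. Of 7 tested crypt and proliferation genes 3 lay higher and 4 lower (median -0.08, and 0.04 over the 5 larger libraries), and 2 of them, the cell cycle genes Mki67 (log2 fold change 0.35) and Top2a (0.33), had an unadjusted DESeq2 p below 0.05 over 8 and over the 5 libraries, against 3.03% and 5.4% of all genes (adjusted p = 0.9998 for both over 8). Of 11 tested immune genes 9 lay higher with a median of 0.32 and 0 past either threshold, and of 9 tested enteroendocrine genes 7 lay lower with a median of -0.09. The medians over the 5 larger libraries were 0.38 for immune genes and -0.31 for enteroendocrine genes, with 8 of 9 of the latter lower. Of 5 tested fibroblast genes 3 lay higher (median 0.06), and of 2 tested mesothelial genes 1 did (median -0.43), with 0 past either threshold. These medians were 0.43 and 0.64 over the 5 larger libraries. The part of these contents in the values of the 8 genes was not tested.

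The genes whose log2 normalized counts followed each factor most closely over the 8 libraries were sought among 10225 genes with a mean of at least 50 normalized counts. Hnf4g went with Cdk19 (r = 0.98) and Khnyn (0.98), Hnf4a with Map3k6 (0.98) and Sorl1 (0.96), Gata4 with Dlat (0.99) and Ap5z1 (0.98), and Gata6 with Alg11 (0.99) and Lmntd2 (0.96). For Cdx2 the nearest were Mrps23 (0.96) and Fam173a (0.95), for Cdx1 Rps14 (0.93) and Atp9a (0.92), and for Onecut2 Aifm1 (0.96) and Gcdh (0.96). All values are over the same 8 libraries, which differ in depth and tissue content, and the list is a description only.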

How the data were processed

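The mRNA of jejunal mucosal scrapings was sequenced from one end (75 bp) after poly-A selection with a stranded kit. Per the labels, the authors trimmed reads with Trimmomatic, aligned them with STAR to GRCm38 (mm10) and counted them with featureCounts, and they deposited raw counts per Ensembl gene for each library, neither normalized nor pooled. Versions, annotation release and strand setting are not given in the sources used here. Symbols were found for 52073 of 56980 identifiers, and the 4907 without one held 0.716% of counts. Exon lengths came from GENCODE M21, which gave a length for 15711 of the 15986 tested genes. It may differ from the annotation used for counting, so RPKM values are approximate. Coordinates are printed for RefSeq promoter windows only.

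Groups came from sample titles. The 15986 genes that reached 10 counts in 4 or more libraries were tested with DESeq2 1.42.0 in R 4.3.3, genotype as the only term, two-sided Wald tests and Benjamini-Hochberg adjustment over all tested genes. Ratios within a library used 1 added count per gene and exact permutation tests. Alternatives were edgeR 4.0.16, TMM and epithelium-based scaling, no filter, a replicate block, a smooth muscle term, libraries of at least 10000000 counts, and each library left out in turn. The members, gene lists and tests were chosen with earlier results of these data known. Named genes were the 8 factors, 13 landmarks, up to 3 genes per list with the smallest unadjusted p below 0.05, and the 2 nearest patterns per factor, and others were named after their values were seen. Of 153 list genes 152 matched, and results for some of them are not reported here. Gata6, Elf3, Apoa4, Fgf15, Treh, Slc51a, Slc51b, Cubn and Ctrc share exon bases with a gene on the opposite strand, so their counts are uncertain. Slc51a shares 567 exon bases with Pcyt1a, which drew 35251 counts against 26600. For Treh only 2 bases are shared. Intervals cover the spread between these mice and counting error, and reads carried no molecular identifiers. Each library was labelled as a separate sample, with nothing said of which littermates belonged together.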

Additional observations from a re-analysis of the deposited data

Results flagged for a closer look

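In a group of 4 libraries a value was singled out when its gap to the nearest other value was too large a share of the group's range (Dixon's criterion at 95%), which chance does in about 1 group in 20. None of the 8 factors had such a value, and 13 of 62 groups examined did. They were concentrated in floxed control 3, which was the highest floxed control for Fabp6 (522.8 normalized counts), Slc10a2 (330.4), Tcf7l2 (2584.7), Mki67 (794.6) and Sox2 (4.182, from 2 raw counts), and the lowest for the log2 ratio of Fabp1 to Fabp6 (5.667). Among Adipoq-F2-KO libraries, number 4 was far highest for Fabp6 (941.9) and Tcf7l2 (2981.7), and number 3 was far lowest for Isx (1045.1) and Cldn7 (5870.2). Single floxed controls stood apart for Elf3 (number 2, lowest, 1094.7), Lct (number 1, highest, 51532.8) and Apoa4 (number 4, lowest, 45435.2).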

How the results depend on the processing

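Across 15 alternative fits, 0 of the 7 tested factors had an adjusted p below 0.05 in any of them. Hnf4g stayed on the higher side in all 15 (0.25 to 0.71, unadjusted p below 0.05 in 9), as did Hnf4a (0.14 to 0.28, 2 of 15), and Gata6 (-0.22 to -0.06) and Cdx1 (-0.14 to -0.04) stayed on the lower. The number of factors with an unadjusted p below 0.05 was 1 over 8 libraries, 0 by edgeR, 0 with epithelium-based size factors, 2 over the 5 libraries of at least 10000000 counts and 0 to 2 with 1 library left out. Among all 15986 genes the same counts were 485, 557, 298, 864 and 282 to 1302. For the factors it was 0 without floxed control 2, floxed control 4, Adipoq-F2-KO 1 or Adipoq-F2-KO 2, and 2 without floxed control 3. Directions near 0 turned. Cdx2 was at -0.0051 with the smooth muscle term, at -0.0939 over the 5 libraries and at -0.13 to 0.09 with 1 library left out. Gata4 was at 0.028 with the smooth muscle term and at -0.22 to 0.0663 with 1 left out, and Onecut2 at -0.22 over the 5 and -0.0875 to 0.18 with 1 left out. Over the 5 libraries Fabp1 was at -0.21, Apoa4 at -0.0102 and the difference in log2 Cdx1 to Cdx2 ratio at 0.0018. With 1 left out the ranges were -0.0202 to 0.26 for Sox9, -0.0421 to 0.25 for Nr5a2, -0.0326 to 0.24 for Fabp1 and -0.10 to 0.10 for Lct. The genotype difference in log2 ratio then ran from -0.42 to -0.09 for Hnf4a to Hnf4g, from -4.29 to -0.54 for Fabp1 to Fabp6, from -0.0135 to 0.1907 for Gata4 to Gata6 and from -0.1961 to 0.0461 for Cdx1 to Cdx2. The cause of these shifts was not tested.

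Genes called at an adjusted p below 0.05 numbered 6 over 8 libraries (5 higher and 1 lower in Adipoq-F2-KO), 7 with TMM factors (5 and 2), 4 with epithelium-based size factors (1 and 3), 2 by edgeR (557 at an unadjusted p below 0.05), 3 without the count filter, 77 over the 5 libraries and 2 to 104 with 1 library left out. They were 104 without floxed control 3, 21 without floxed control 2, 3 without floxed control 4 or Adipoq-F2-KO 4, and 2 without floxed control 1. Tcf7l2 passed the adjustment in 2 of 15 alternatives, and Osr2 and Mki67 in 1 each. Without Adipoq-F2-KO 2, 1 of the correlations with smooth muscle passed the adjustment, against 0 over 8 libraries. With a replicate block, 11 genes and none of the factors were called. Samples with the same number did not deviate together throughout (correlations of 0.542, 0.294, 0.011 and -0.423), so the numbers were not taken to pair mice. The depth of these libraries limits what can be read for Pdx1.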
